A study of Rattus norvegicus with 6 samples.

Results

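The genes described here are 9 genes of forebrain cholinergic neurons: Chat, Slc18a3, Slc5a7, Ache, Bche, Ngfr, Ecel1, Lhx8 and Isl1. They were found by matching the transcript identifier of every probe on a rat expression array to a RefSeq gene, and each of the 9 had 1 probe among 15168 genes with a symbol on the array. Brain RNA came from 6 male rats of Wistar background aged 15 weeks, 3 of the genotype SPORTS, a hyperactive mutant line, and 3 wildtype. All 6 rats were sedentary, and no agent or transgene is named for either group. The labels name neither the mutated gene nor a brain region, so a level here is that of the brain tissue taken. Each rat was hybridised to 1 single-colour Agilent array, and all 6 arrays shared 1 slide. Signals are given as log2 values relative to the 75th percentile of each array. A difference is the SPORTS mean less the wild type mean, so that a negative value is lower in SPORTS and 1 unit is a doubling.

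Cholinergic neurons of the basal forebrain project to cortex and hippocampus, and cholinergic interneurons of the striatum act on the projection neurons around them. Both kinds make acetylcholine with choline acetyltransferase (Chat), load it into vesicles with the vesicular transporter (Slc18a3) and take choline back up with a high-affinity transporter (Slc5a7). Acetylcholinesterase (Ache) and butyrylcholinesterase (Bche) break the transmitter down. The LIM homeodomain factors Lhx8 and Isl1 direct and maintain the cholinergic fate of both populations, and the neurotrophin receptor p75 (Ngfr) marks the basal forebrain neurons in particular.

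Of the 9 genes, 5 were lower in SPORTS, namely Lhx8, Isl1, Ngfr, Ecel1 and Slc18a3, and none was higher (limma, adjusted p under 0.05 over all tested probes; at an unadjusted p under 0.05 also 5 and 0). Over all 11033 tested genes, 11.4% were lower by the same rule and 12.9% higher, 24.3% in either direction. Centring the arrays on their median instead turned which direction was more frequent over all genes, with 1600 lower and 1213 higher, and left 5 of the 9 lower. The median difference of the 9 genes was -0.50 against 0.01 over all tested genes. The groups did not overlap for the 5 genes, and over all tested genes 22.3% were lower and 24.8% higher without overlap. Chat, Slc5a7, Ache and Bche did not pass. All but Lhx8 and Isl1, that is 7 of the 9 genes, were well above background on all 6 arrays. Lhx8 and Isl1 entered the test through the wild type arrays alone, so a call of higher was hardly open to them. Where all 6 arrays had to be well above background, 3 of 7 were lower and 0 higher. Of all 10672 genes tested that way, 1249 were lower and 1418 higher.

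The groups were not balanced over the rows of the slide. The arrays in row 1 of the slide were wild type replicates 1 and 2, and row 2 held wild type replicate 3 with the 3 SPORTS arrays. With the slide row as a block, Ngfr alone of the 5 genes passed (adjusted p = 0.0287), where 4.31% of all tested genes were lower and 4.03% higher, while all 5 kept their sign, at -4.97 for Lhx8, -2.85 for Isl1, -0.74 for Ngfr, -0.67 for Ecel1 and -0.54 for Slc18a3. The adjusted p of the other 4 was then 0.0613 for Lhx8, 0.137 for Isl1, 0.0938 for Ecel1 and 0.0885 for Slc18a3. Differences within row 2 equal those of the blocked fit and rest on 1 wild type array. In bulk tissue, fewer cells of a type and less RNA per cell cannot be told apart.

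**Figure D1:**
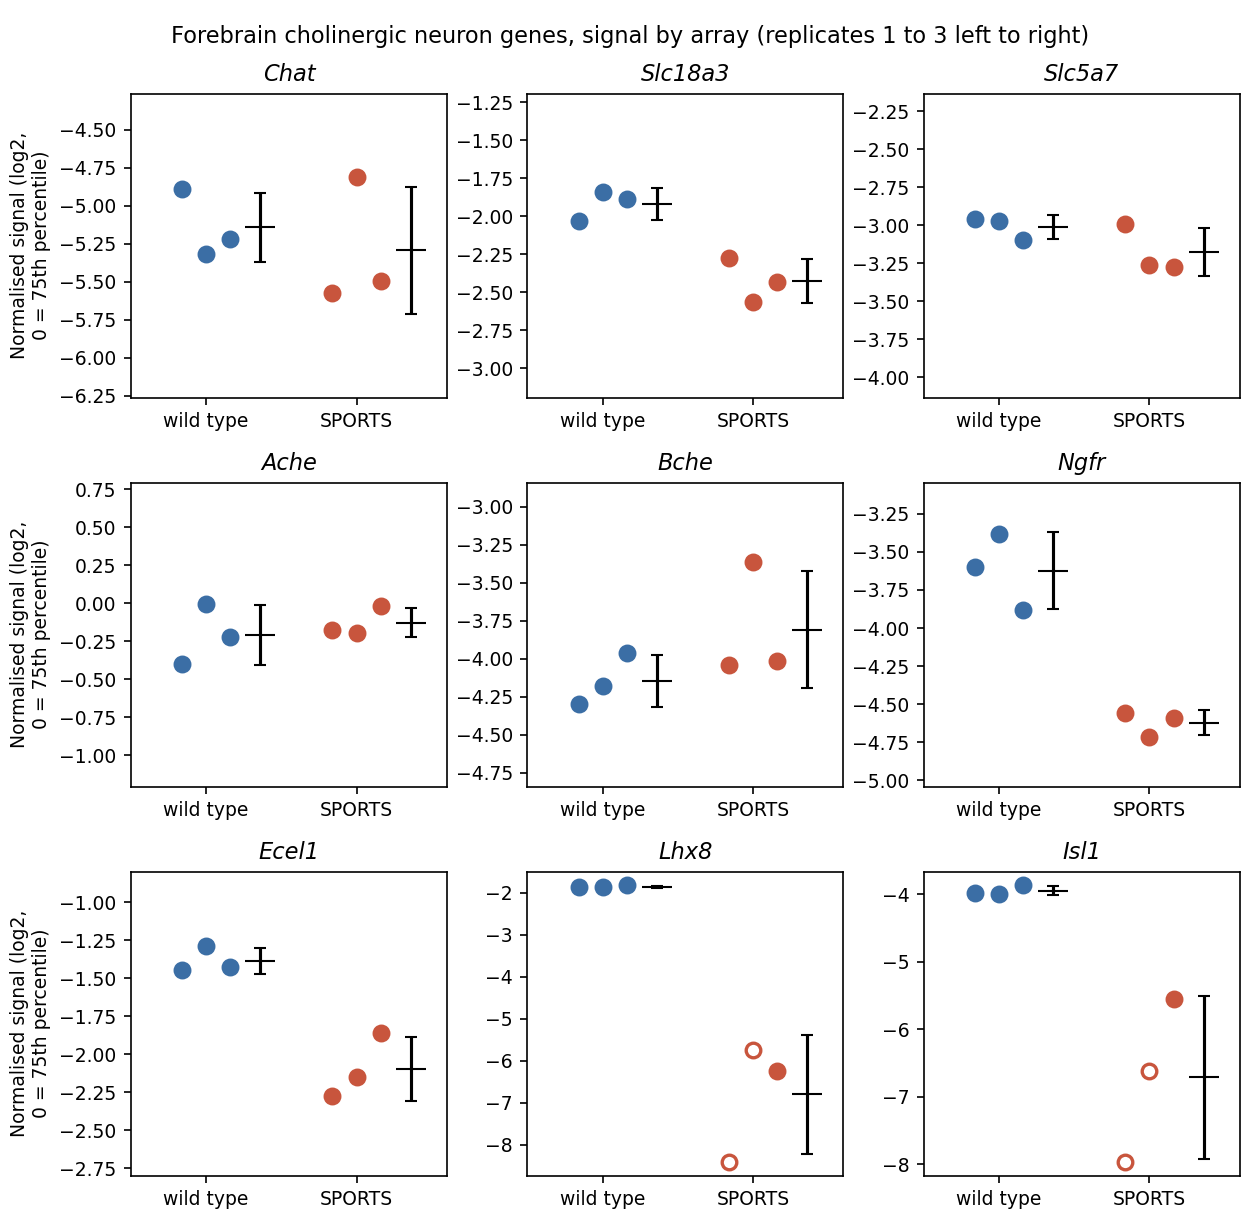
Normalised log2 signal of each of the 9 genes on each array, with 3 wild type arrays in blue and 3 SPORTS arrays in red. Filled points were well above background and open points were not, bars give the mean and SD, and the panels of Lhx8 and Isl1 span a wider range than the other 7. The groups are apart for Slc18a3, Ngfr, Ecel1, Lhx8 and Isl1 and overlap for Chat, Slc5a7, Ache and Bche.

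The transcription factor genes showed the largest differences. Lhx8 (probe A_64_P132856) had a signal of -1.88, -1.87 and -1.83 in the wild type arrays and of -8.41, -5.74 and -6.24 in the SPORTS arrays. Wild type rats were almost alike (-1.86 ± 0.03, SD, n = 3), and every SPORTS rat was far below them with a wide spread (-6.79 ± 1.42, n = 3). The difference was -4.94 ± 0.68 (SE; limma adjusted p = 0.00622), and -4.13 without SPORTS replicate 1 (adjusted p = 0.00103).

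The size of this difference is uncertain, since only SPORTS replicate 3 was well above background. Before background subtraction the Lhx8 spots had a median brightness of 459, 494 and 495 in wild type and of 46.5, 83.5 and 69.5 in SPORTS, where the local background was 40.5, 39.0 and 36.0. SPORTS replicate 1 was thus close to its surroundings, and replicates 2 and 3 were somewhat brighter than theirs. With SPORTS arrays not well above background set to the lowest signal that was, where that is higher, the Lhx8 difference was -4.23, an 18.7-fold fall, against 30.6-fold from the fit. With normexp background correction, whose offset of 50 shrinks differences of dim genes, it was -2.57 (adjusted p = 5.38e-05).

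Isl1 (probe A_44_P509917) had a signal of -3.98, -3.99 and -3.87 in wild type and of -7.96, -6.62 and -5.56 in SPORTS. The groups did not overlap, and again SPORTS replicate 1 was lowest and SPORTS replicate 3 was the only SPORTS array well above background. Isl1 fell by 2.77 ± 0.58 on the log2 scale (SE; limma adjusted p = 0.0232), from -3.95 ± 0.07 (SD, n = 3) to -6.71 ± 1.21 (n = 3). With the dim arrays set to the lowest signal well above background the difference was -1.97, a 3.92-fold fall, and with normexp it was -1.02 (adjusted p = 0.000192). Without SPORTS replicate 1 it was -2.14 (adjusted p = 0.0197). The call of Isl1 ended without any 1 of wild type replicates 1 to 3 (adjusted p = 0.0691, 0.0666 and 0.0766), without SPORTS replicate 2 (adjusted p = 0.0813) and without the filter on dim probes (adjusted p = 0.0673).

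**Figure D2:**
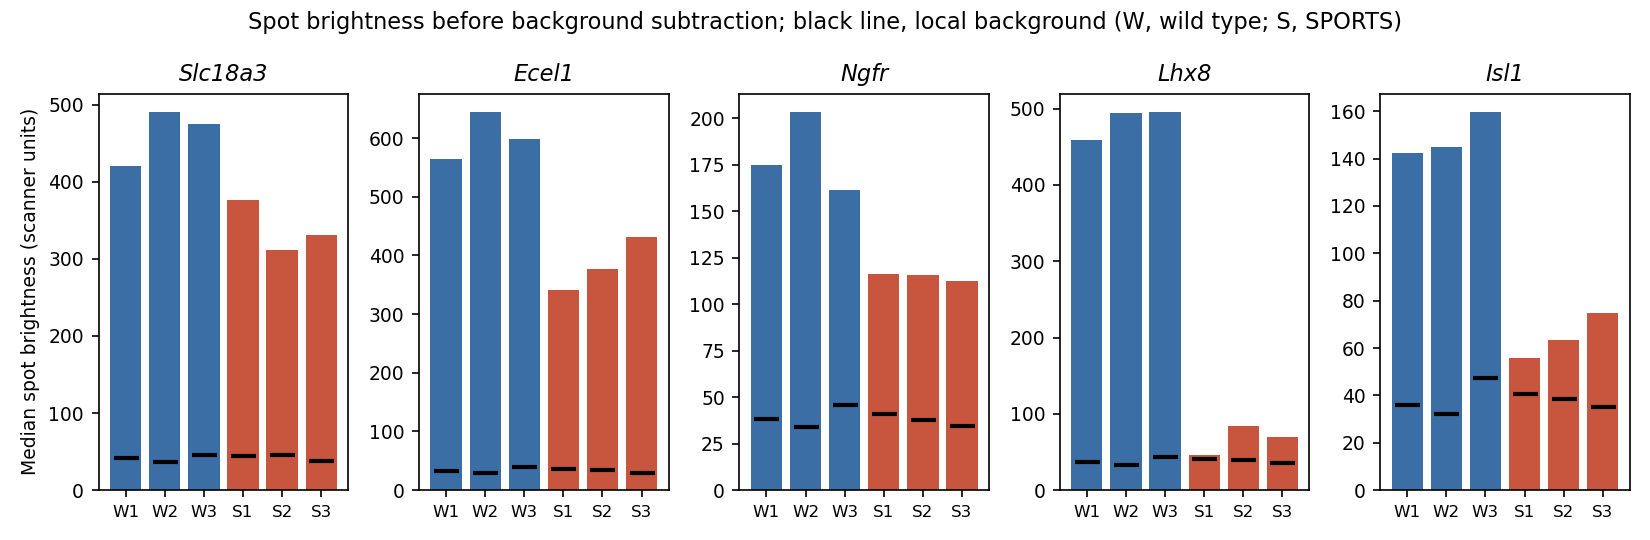
Median spot brightness in scanner units, before background subtraction, of the 5 genes that were lower in SPORTS, with 1 bar per array (W1 to W3 wild type, S1 to S3 SPORTS) and the local background as a black line. Lhx8 spots fell from at least 459 in wild type to at most 83.5 in SPORTS, where replicate 1 was closest to its local background (46.5 against 40.5), while Slc18a3 and Ecel1 stayed well above it on every array.

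Because Lhx8 had the largest difference, the 250 bases before its outermost RefSeq start are shown, as given by RefSeq for build GRCr8 (chr2:245929377-245929626, minus strand), in lower case throughout because none of the motifs searched is in it.

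Lhx8: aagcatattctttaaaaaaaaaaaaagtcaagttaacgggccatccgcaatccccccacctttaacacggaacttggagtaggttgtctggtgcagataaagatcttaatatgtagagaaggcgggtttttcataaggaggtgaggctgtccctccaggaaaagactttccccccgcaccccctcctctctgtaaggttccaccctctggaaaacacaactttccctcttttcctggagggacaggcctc

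The homeodomain motifs TAATTA and TAATGG and the E-box CAGCTG were searched on both strands in such 250-base windows. Windows were given for 8 of the 9 genes, all but Ngfr, and 9 windows in all because Lhx8 has 2 starts. The starts given for Isl1 and Ecel1 may lie at or near the coding start rather than the transcript start. TAATTA and TAATGG were in 0 of the 9 windows, against 4.86% and 7.37% of all 33469 windows. CAGCTG was in 2 of the 9 windows, against 12% of all windows.

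Among the genes of acetylcholine synthesis and transport, the vesicular transporter gene Slc18a3 (probe A_64_P008171) fell. Its signal was -2.04, -1.84 and -1.88 in wild type and -2.28, -2.57 and -2.43 in SPORTS. Every SPORTS rat was below every wild type rat, by 0.50 ± 0.09 on average (SE; limma adjusted p = 0.0138), a 1.42-fold difference. The call ended without wild type replicate 3 (adjusted p = 0.0539) or SPORTS replicate 3 (adjusted p = 0.0511), with differences of -0.49 and -0.50.

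Chat (probe A_64_P118273), which encodes the enzyme that makes acetylcholine from choline and acetyl-CoA, gave a processed signal of 33.1 to 56.1 scanner units over the 6 arrays. Its normalised signal was -4.89, -5.32 and -5.22 in wild type and -5.57, -4.81 and -5.49 in SPORTS. The groups overlapped, with SPORTS replicate 2 the highest of all 6 arrays and the other SPORTS arrays the lowest. The difference was -0.15 ± 0.23 (SE; limma adjusted p = 0.690), with a 95% interval from -0.72 to 0.41. Leaving out 1 array gave from -0.39 (without SPORTS replicate 2, adjusted p = 0.162) to -0.012 (without SPORTS replicate 1), and the slide row block gave -0.077. The 2 Chat spots disagreed on SPORTS replicate 2, with processed signals of 32.7 and 96.3, and on wild type replicate 1, with 34.2 and 82.9. Without wild type replicate 1 the difference was -0.025. The interval includes the -0.50 of Slc18a3, so a fall of that size was not excluded for Chat.

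Slc5a7 (probe A_43_P15511), the choline transporter gene, had a signal of -2.96, -2.97 and -3.10 in wild type and of -2.99, -3.26 and -3.28 in SPORTS. SPORTS replicate 1 lay within the wild type range and the other SPORTS arrays below it. The difference was -0.17 ± 0.09 (SE; limma adjusted p = 0.255), with a 95% interval from -0.39 to 0.06, and leaving out 1 array gave from -0.26 (without SPORTS replicate 1, adjusted p = 0.0536) to -0.12 (without SPORTS replicate 3). With the slide row block it was -0.076 (adjusted p = 0.763).

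Slc18a3 lies inside the Chat gene, on the same strand, in the RefSeq gene list, so the windows before the 2 starts are shown side by side (RefSeq, build GRCr8, minus strand; chr16:7723417-7723666 for Chat and chr16:7722815-7723064 for Slc18a3), with the E-box CAGCTG in capitals.

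Chat: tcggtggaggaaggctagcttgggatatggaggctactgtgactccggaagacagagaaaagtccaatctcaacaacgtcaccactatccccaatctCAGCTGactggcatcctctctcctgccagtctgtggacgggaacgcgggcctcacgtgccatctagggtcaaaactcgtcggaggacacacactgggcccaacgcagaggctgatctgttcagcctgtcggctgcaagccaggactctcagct

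Slc18a3: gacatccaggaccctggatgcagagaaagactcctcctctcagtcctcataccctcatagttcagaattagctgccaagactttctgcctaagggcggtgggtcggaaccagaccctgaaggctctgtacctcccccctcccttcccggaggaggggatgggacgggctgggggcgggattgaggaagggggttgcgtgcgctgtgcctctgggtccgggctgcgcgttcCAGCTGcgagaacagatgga

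Each window holds 1 CAGCTG, which ends 147 bases before the start of Chat and 14 bases before the start of Slc18a3. With 3 rats against 3 an exact permutation p cannot go below 0.10, so the ratios of these genes within an array are a description and could not pass. The log2 ratio of Slc18a3 to Chat averaged 3.22 ± 0.33 over the wild type rats and 2.87 ± 0.55 over the SPORTS rats (SD, n = 3 each). It thus changed by -0.35 with overlapping groups (exact two-sided permutation test, p = 0.50; adjusted p = 0.667 over 4 ratios). The ratio of Slc18a3 to Slc5a7 changed by -0.34, from between 0.93 and 1.22 in wild type to between 0.69 and 0.84 in SPORTS rats. Its groups did not overlap, which gives the smallest exact permutation p of 0.10 (adjusted p = 0.40). The ratio of Chat to Slc5a7 changed by 0.01 (exact permutation p = 1.0).

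The genes of acetylcholine breakdown did not pass. Ache (probe A_44_P153789), whose product ends transmission at the synapse, had a signal of -0.40, -0.01 and -0.22 in wild type and of -0.17, -0.19 and -0.02 in SPORTS. All SPORTS arrays lay within the wild type range, and the difference was 0.08 ± 0.11 (SE; limma adjusted p = 0.653), with a 95% interval from -0.19 to 0.35. On the linear scale this interval runs from 0.879-fold to 1.27-fold. The sign of this difference turned without wild type replicate 1 (-0.015).

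Bche (probe A_43_P12345), which encodes the cholinesterase of glia and plasma, had a signal of -4.30, -4.18 and -3.96 in wild type and of -4.04, -3.36 and -4.02 in SPORTS. SPORTS replicate 2 was the highest array, as it was for Chat, and the other SPORTS arrays lay within the wild type range. The difference was 0.34 ± 0.20 (SE; limma adjusted p = 0.299), with a 95% interval from -0.16 to 0.84, and it was 0.12 without SPORTS replicate 2 and 0.15 with the slide row block. The 2 Bche spots of SPORTS replicate 2 also disagreed, with processed signals of 98.3 and 239, the first within the range of the other SPORTS spots. The ratio of Ache to Bche changed by -0.26 (exact permutation p = 0.50).

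Ngfr (probe A_44_P556989), the p75 neurotrophin receptor gene, was measured with 10 spots on each array, against 2 for each of the other 8 genes. Its signal was -3.60, -3.38 and -3.88 in wild type and -4.56, -4.72 and -4.59 in SPORTS. The 3 SPORTS rats were close together and all below the lowest wild type rat, replicate 3. Ngfr fell by 1.0 ± 0.13 on the log2 scale (SE; limma adjusted p = 0.00511), from -3.62 ± 0.25 (SD, n = 3) to -4.62 ± 0.08 (n = 3), a 2.0-fold difference. Its call was kept under all 17 alternative settings, with differences from -1.13 to -0.59, the smallest with normexp. The 17 settings are not independent checks, for this or any other gene. The deposited table repeats the main values, and row 2 alone repeats the blocked difference. For a gene with 1 probe, such as Ngfr, the mean over probes also leaves the difference unchanged.

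Ecel1 (probe A_64_P136512), a neuronal endopeptidase gene whose rat product was described as a damage-induced enzyme of injured neurons, had a signal of -1.45, -1.29 and -1.43 in wild type and of -2.28, -2.15 and -1.86 in SPORTS. The groups did not overlap. Ecel1 fell by 0.71 ± 0.11 on the log2 scale (SE; limma adjusted p = 0.00996), a 1.64-fold difference, and it kept its call in 15 of 17 alternatives, the exceptions being the row block and row 2 alone.

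**Figure D3:**
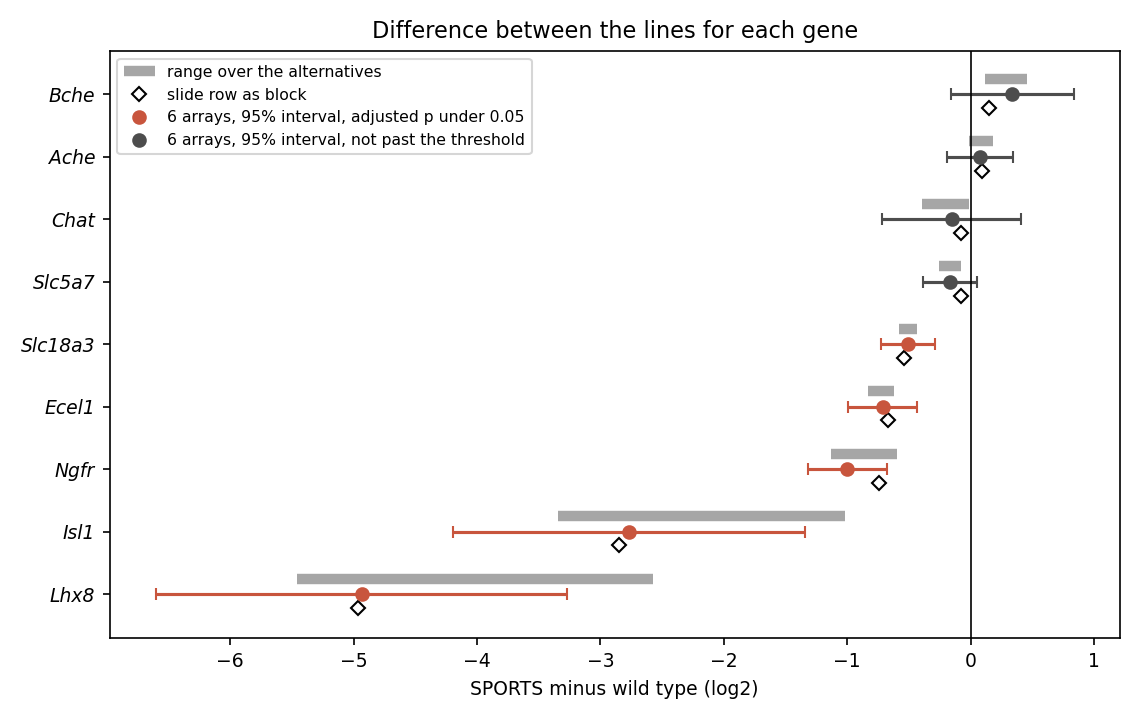
SPORTS minus wild type on the log2 scale for the 9 genes, with the 95% interval of the fit over 6 arrays (circles, red where the adjusted p was under 0.05), the value with slide row as a block (open diamonds) and the range over the alternative settings (grey bars). The intervals of Chat, Slc5a7, Ache and Bche cross 0, and the grey bars of Lhx8 and Isl1 are wide, from -5.46 to -2.57 and from -3.35 to -1.02.

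The spread between arrays of 1 group was larger for these genes than for most. It holds measurement noise as well as differences between rats, and genes of like brightness were not compared. The pooled within-group SD was 1.002 for Lhx8, 0.85 for Isl1, 0.34 for Chat and 0.30 for Bche, and it was between 0.12 (Slc18a3) and 0.19 (Ngfr) for the other 5, against a median of 0.06 over all tested genes. Lhx8 and Isl1 owe this to the SPORTS arrays, 2 of which were not well above background for either gene, with SDs in wild type of 0.03 and 0.07. For Chat and Bche, the 2 spots of the probe disagreed on SPORTS replicate 2, as given above.

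The genes with the profile closest to that of Lhx8 over the 6 arrays, each gene centred on its own mean, were Klkb1 (root mean square distance 0.78), the vasopressin gene Avp (1.004) and the adenosine receptor gene Adora2a (1.07). Klkb1 was not well above background on any SPORTS array and was at least 5.21-fold lower, and Avp and Adora2a had differences of -4.17 and -3.08. Since Lhx8 was itself dim in SPORTS, this order rests partly on signals near background. The closest to Chat were Agps (0.11), Txlna (0.13) and Sectm1b (0.15), none of which passed (limma adjusted p from 0.689 to 0.845).

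The 4 lists related to the 9 genes are not 1 pathway: they cover cell fate, p75 partners, choline supply and acetyl-CoA supply. Of their 47 tested genes, 11 were lower in SPORTS and 2 higher (limma, adjusted p under 0.05), and the median difference was -0.01. Over all tested genes 11.4% were lower and 12.9% higher. With slide row as a block 3 were lower and 1 higher, beside 4.31% and 4.03%. Without SPORTS replicate 1, and likewise without SPORTS replicate 2, 7 were lower.

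Among genes of cholinergic fate and basal forebrain development, 4 of 11 tested were lower and 1, Lmo1 (0.30 ± 0.04, SE), was higher (median -0.04). Of the 20 symbols listed, 9 were not tested, among them Lhx7, an older symbol of Lhx8. Six3, a homeobox gene of the developing ventral forebrain, fell by 1.28 ± 0.19 (SE; limma adjusted p = 0.00755) and was well above background on 1 of 3 SPORTS arrays. It too entered the test through the wild type arrays alone. With its dim arrays set to the lowest signal well above background, the Six3 difference was -0.96. Over the alternative settings it ran from -1.45 to -0.41. Nkx2-1, the patterning gene of the medial ganglionic eminence, where Lhx8 is first expressed, had a signal of -3.92, -3.69 and -3.40 in wild type and of -5.11, -4.67 and -4.16 in SPORTS. It fell by 0.98 ± 0.26 (adjusted p = 0.0485), a call that was kept in 8 of 17 alternatives. Lhx6, the homologue of Lhx8 that directs interneuron fate from the same domain, fell by 0.55 ± 0.06 (adjusted p = 0.00269). In the blocked fit Lhx6 kept its call (adjusted p = 0.0372), which Six3 and Nkx2-1 did not (adjusted p = 0.0817 and 0.118).

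Among neurotrophins, their receptors and partners of p75, 5 of 14 tested were lower and 1 was higher (median -0.08). Ntrk2, the BDNF receptor gene, fell by 0.36 ± 0.06 (SE; limma adjusted p = 0.0133; 0.0446 with the block). The signalling adaptor gene Traf6, whose product binds p75, was the gene that rose, by 0.82 ± 0.05 (adjusted p = 0.000348), and it kept its call in all 17 alternatives.

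Genes that supply choline and acetyl-CoA to the cell formed the other lists. Of 14 tested genes of choline transport and phospholipid choline, 2 were lower and none was higher (limma; 2 and 3 at an unadjusted p under 0.05), with a median of 0.06. These were the phospholipase D gene Pld2, which fell by 0.31 ± 0.05 (SE; adjusted p = 0.00762), and the choline kinase gene Chkb, which fell by 0.15 ± 0.03 (adjusted p = 0.0217). Neither passed in the blocked fit (adjusted p = 0.0799 and 0.134), and Pld2 was at -0.03 in the mean over its probes. Of 8 tested genes of acetyl-CoA supply and esterase anchoring, none passed (limma; at an unadjusted p under 0.05, 1 lower and 1 higher), with the smallest p for the pyruvate dehydrogenase subunit gene Dlat at -0.14 ± 0.04 (adjusted p = 0.0567).

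**Figure D4:**
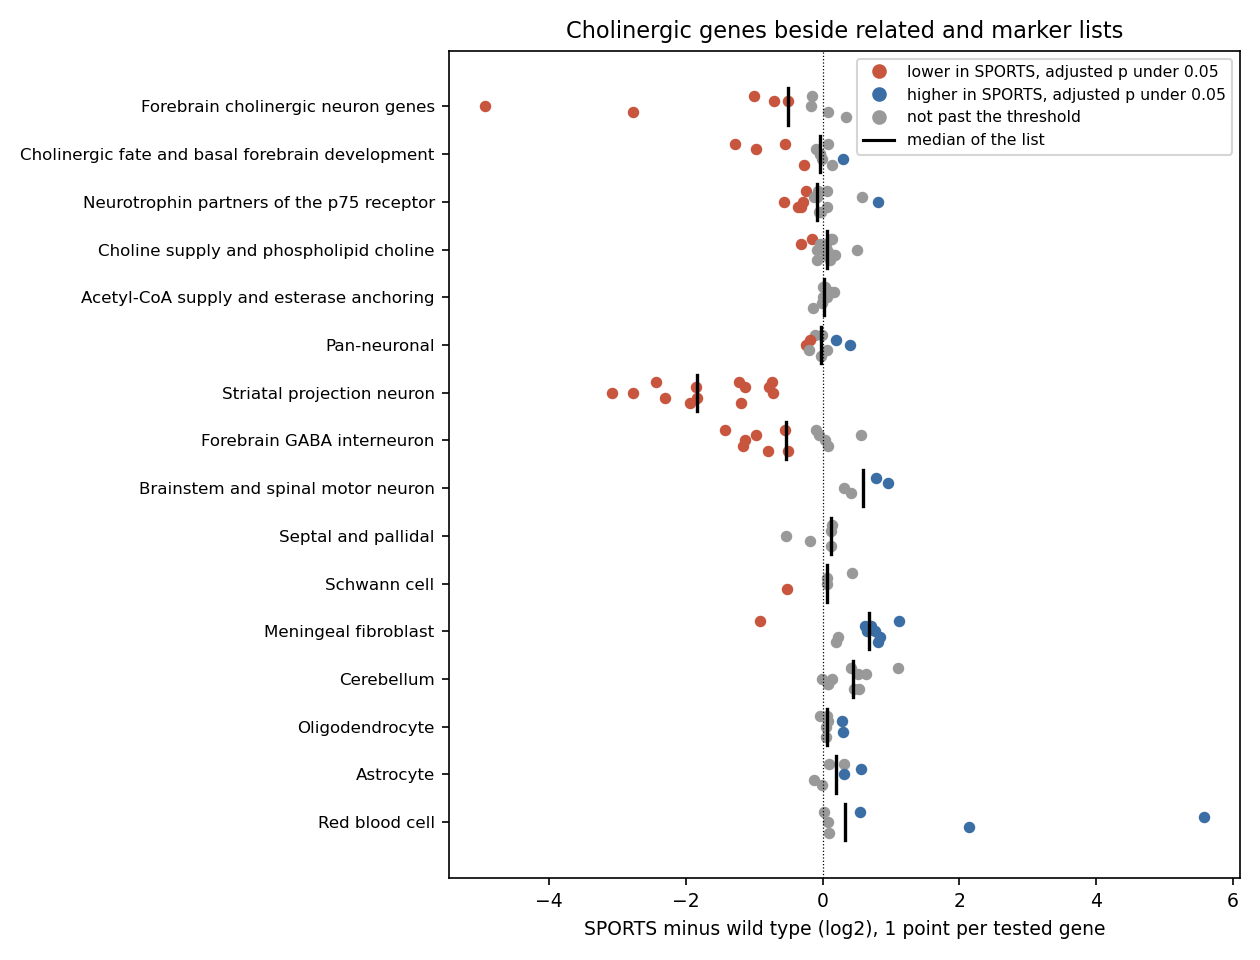
SPORTS minus wild type on the log2 scale, with 1 point for each tested gene, for the 9 cholinergic genes, the 4 related lists and 11 lists of regional and cell type markers. Red and blue points passed as lower and higher, grey points did not pass, and black lines give medians. The median is lowest for the striatal projection neuron list (-1.83), and in that list all 13 tested genes are red.

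Markers of striatal projection neurons and some markers of forebrain interneurons were lower in SPORTS too. Of 16 listed striatal projection neuron markers 13 were tested, and all 13 were lower (median -1.83), led by Adora2a (-3.08 ± 0.26, SE), Rgs9 (-2.77 ± 0.10) and Drd1 (-2.43 ± 0.21; limma adjusted p = 0.00138, 0.000108 and 0.00145). Drd1 was well above background on 1 of 3 SPORTS arrays, and over the alternative settings its difference ran from -2.79 to -1.18. It entered the test through the wild type arrays alone, so a call of higher was hardly open to it. The summed linear signal of the 13, in multiples of the array's 75th percentile, lay between 36.8 and 42.6 for wild type rats and between 13.2 and 14.8 for SPORTS rats. With slide row as a block all 13 were lower too. Of 12 forebrain GABA interneuron markers, which include Lhx6 and Nkx2-1, 7 were lower and none was higher (limma; at an unadjusted p under 0.05 also 7 and 0; median -0.53). The homeobox gene Dlx5 had a difference of -1.42 ± 0.10, the cortistatin gene Cort of -1.17 ± 0.13 and the somatostatin gene Sst of -1.13 ± 0.06 (SE). The 5 that did not pass were Gad1 (-0.10), Gad2 (-0.06), Pvalb (0.07), Vip (0.04) and Th (0.56), named after their values were seen. The sum of the 12 lay between 63.9 and 71.8 for wild type rats and between 46.7 and 49.3 for SPORTS rats. Without Sst and Npy, both lower in SPORTS and left out after the values were seen, the ranges overlapped, at 28.6 to 33.7 and 28.6 to 31.2. That sum rests most on bright genes such as Gad1, so it says little of the dimmer markers. With slide row as a block 6 of the 12 markers were lower and 0 higher. The part of these differences in those of Lhx8, Isl1, Ngfr, Ecel1 and Slc18a3 was not tested.

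Cholinergic motor neurons of brainstem and spinal cord also express Chat, Slc18a3, Slc5a7 and Isl1. Of 13 listed markers of these neurons 4 were tested, 2 of which, Calca and Prph, were higher in SPORTS, by 0.96 ± 0.16 and 0.78 ± 0.20 (SE; limma adjusted p = 0.0108 and 0.0404). The sum of the 4 lay between 0.447 and 0.591 for wild type rats and between 0.806 and 1.09 for SPORTS rats, and with slide row as a block none passed in limma (0 lower and 1 higher at an unadjusted p under 0.05). The defining gene Mnx1 had no probe with a matched symbol, and Phox2a was on the array but not well above background on all arrays of a group. The part of these neurons in the levels of Chat, Slc18a3 and Slc5a7 was not tested.

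The brain identity of the samples showed in the pan-neuronal markers, of which 9 of 9 tested were well above background on all 6 arrays, 2 were lower and 2 higher (Nefm 0.40, Tubb3 -0.24 and Nefl 0.20; median -0.03). Ngfr and Bche are also made outside neurons. Of 4 tested Schwann cell markers 1, Egr2, was lower (-0.52), and the sum of the 4 ran over 2.22 to 2.30 for wild type rats and 2.23 to 2.42 for SPORTS rats. Of 10 tested meningeal fibroblast markers 7 were higher and 1 was lower (Dcn 1.12, Ogn -0.92 and Col1a2 0.84), with a sum between 6.74 and 7.76 for wild type rats and between 10.5 and 12.3 for SPORTS rats. Lum, 1 of the 7, was well above background on 2 of 3 wild type arrays. It entered the test through the SPORTS arrays alone, so a call of lower was hardly open to it. Of 5 septal and pallidal markers none passed in limma (1 lower and 1 higher at an unadjusted p under 0.05; Prokr2 had the smallest p, at -0.53), nor did any of 10 cerebellar markers (0 lower and 3 higher unadjusted; Cbln3 at 0.42), whose sum lay between 8.43 and 9.91 for wild type rats and between 9.21 and 13.6 for SPORTS rats. The highest sum was that of SPORTS replicate 1, the array with the lowest Lhx8 and Isl1 signals, against 9.59 and 9.21 in the other SPORTS arrays. Pcp2, a Purkinje cell gene, was at -0.51 there and at -3.56 and -3.58 in those. The part of this difference between arrays in the Lhx8 and Isl1 values was not tested, and both differences without SPORTS replicate 1 are given with those genes. Of 7 oligodendrocyte markers 2 were higher (among them Mog, 0.28), as were 2 of 6 astrocyte markers (Aqp4 0.57 and Aldh1l1 0.31). Of 6 red blood cell markers 3 were higher, namely Hbb-bs (2.14), Ahsp (0.55) and Hba-a3, which none of the wild type arrays measured well above background. Hba-a3 thus entered the test through the SPORTS arrays alone too. With slide row as a block none of the pan-neuronal, Schwann cell, oligodendrocyte or astrocyte markers passed in limma. At an unadjusted p under 0.05 that fit gave 2 lower and 1 higher pan-neuronal markers, 0 Schwann cell markers, and 2 higher markers each of oligodendrocytes and astrocytes. In the same fit 5 meningeal fibroblast markers were higher and 1 lower, and 2 red blood cell markers, Ahsp not among them (adjusted p = 0.229), were higher.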

How the data were processed

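Per the file headers, Agilent Feature Extraction 10.10.1.1 produced the authors' deposited intensity values (single colour, Cy3), with background subtracted and the signal detrended on each array and no step between arrays. The series-wide deposited table holds the same intensity values, still linear, times 1 factor per array (1.38 to 1.47) whose choice is unstated. Flags for background, outliers and saturation came from the same files, and 0 spots were saturated.

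Outlier-flagged spot values (3075 of those on 58717 non-control spots of 6 arrays) were dropped, log2 values of a probe's spots were averaged, and the array's 75th percentile over non-control spots (1530 to 1628 scanner units) was subtracted. The test took probes with over 0.5 of spots well above background on every array of at least 1 group, 20658 of 30367 probes. Symbols came from RefSeq (GRCr8) through the transcript identifier, for 18005 probes. Where a gene had several tested probes, the one brightest on average stood for it. Groups were compared with limma 3.58.1 in R 4.3.3, two-sided, with Benjamini-Hochberg adjustment over all tested probes. The procedure was tested on simulated data. The number of arrays limits the precision.

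The 9 genes and the lists were chosen with earlier results of these data known. Named were all 9 genes, up to 3 called genes of each list with the largest differences (or the tested gene with the smallest p), and the 3 nearest profiles to Chat and to the gene with the largest difference. The floor for dim arrays was added after seeing the data. Normexp used the median spot brightness and the local background median. A few genes that this rule names are not reported here.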

Additional observations from a re-analysis of the deposited data

How the results depend on the processing

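Of the 9 genes, 5 were lower in SPORTS, and so they were with quantile normalisation, a median shift, normexp and a trended robust variance. The deposited table, outlier spots kept and probe means per gene also gave 5, but could hardly have given another count. The deposited table repeats the main values, each of the 9 genes had 1 probe, and only Ngfr had spots flagged as outliers. The count was 4 without the filter on dim probes, where 676 of all 15168 genes were lower. It was 3 of 7 where all 6 arrays had to be well above background, which leaves out Lhx8 and Isl1, beside 1249 of 10672 genes. With slide row as a block it was 1, beside 475 of 11033 genes. Leaving out 1 array gave 3 to 5, the lowest without wild type replicate 3, where 793 of 11431 genes were lower. None was higher in any alternative run, at an unadjusted p under 0.05 either. The Ache difference ran from -0.015 (without wild type replicate 1) to 0.18 over these. No paired analysis was possible because the replicate numbers were given in accession order and the labels link no rats across groups.

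In the 4 related lists 11 genes were lower. The count was 7 without the filter on dim probes, 3 with the row block, 0 in row 2 alone (limma; 11 at an unadjusted p under 0.05) and 7 to 8 without 1 array. The 2 higher genes became 4 with quantile normalisation or the trended robust variance, 1 with the row block or row 2 alone, and 2 to 3 without 1 array. Over all genes, 1257 were lower and 1424 higher, against 1600 and 1213 with a median shift, 475 and 445 with the row block and 676 and 767 without the filter. Why calls were lost with the block was not tested. Signal over background limits the sizes of Lhx8 and Isl1.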

Other observations

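In a comparison chosen after the values were seen, the nearest tested gene on either side of each of the 5 genes that fell was looked up in the RefSeq gene order (GRCr8). Of these 10 neighbours none was lower in SPORTS and 4 were higher in limma's test, against 11.4% lower and 12.9% higher over all tested genes (at an unadjusted p under 0.05, 1 lower and 5 higher). Beside Lhx8, Cryz was higher by 0.56 ± 0.07 (SE; limma adjusted p = 0.00528) and Acadm, a gene of medium-chain fatty acid oxidation, by 0.20 ± 0.04 (adjusted p = 0.0169). Beside Isl1, Emb was higher by 0.36 ± 0.04 (adjusted p = 0.00394) and Pelo did not pass (0.06 ± 0.05). Beside Ngfr, neither Nxph3 (-0.31 ± 0.10) nor Phb1 (-0.01 ± 0.04) passed, and beside Ecel1, Efhd1 was higher by 0.15 ± 0.04 (adjusted p = 0.0470). The neighbours of Slc18a3 were Chat and Ercc6, and neither passed.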
